A study of Mus musculus with 7 samples.

Results

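The genes described are 9 transporters that move glutamate, or the glutamine it is made from, at the synapse. They were taken by name from a count table of 25467 genes, and all 9 were present and passed the low-count filter. They fall into 3 vesicular glutamate transporters (Slc17a6, Slc17a7, Slc17a8), 3 plasma membrane glutamate transporters (Slc1a1, Slc1a2, Slc1a3) and 3 glutamine transporters (Slc38a1, Slc38a2, Slc38a3). The data are bulk RNA-seq of 7 mouse brain samples whose titles name the mPFC (medial prefrontal cortex). For 4 samples the labels give rhTSP1, recombinant human thrombospondin-1 (TSP1 below), an astrocyte-secreted matrix protein known to induce excitatory synapses. The other 3 received phosphate-buffered saline (PBS). The sources used here do not give strain, sex, age, genotype, dose, route or time after treatment, and name no other agent for either group. Nothing in them says that the samples came from separate animals, so p-values measure the spread between these samples, which may be technical.

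Glutamate is pumped into synaptic vesicles by vesicular transporters that use the proton gradient of the vesicle, and after release it is cleared from the cleft by sodium-driven carriers, most of them on astrocytes. Astrocytes convert it to glutamine, which leaves them through system N carriers and enters neurons through system A carriers, where it is turned back into glutamate or GABA. In adult neocortex the vesicular transporter of local pyramidal neurons is mainly Slc17a7, whereas Slc17a6 is the main form in thalamus and other subcortical regions, from which axons reach the cortex.

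Of the 9 genes, Slc17a6 alone had values that did not overlap between the groups. Its level in CPM (read counts relative to library size, scaled by edgeR's TMM factors) was 1.48-fold higher with TSP1 (95% interval 1.25 to 1.75), but with Benjamini-Hochberg adjustment over the whole table edgeR's quasi-likelihood test did not call it (adjusted p = 0.123). The other 8 genes had fitted folds between 0.88 and 1.07, overlapping groups and adjusted p-values of 0.692 or more. For 7 of these 8, all but Slc17a8, the 95% interval of the fold excluded a 1.5-fold change in either direction. The plot of CPM by library shows each measurement.

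**Figure D1:**
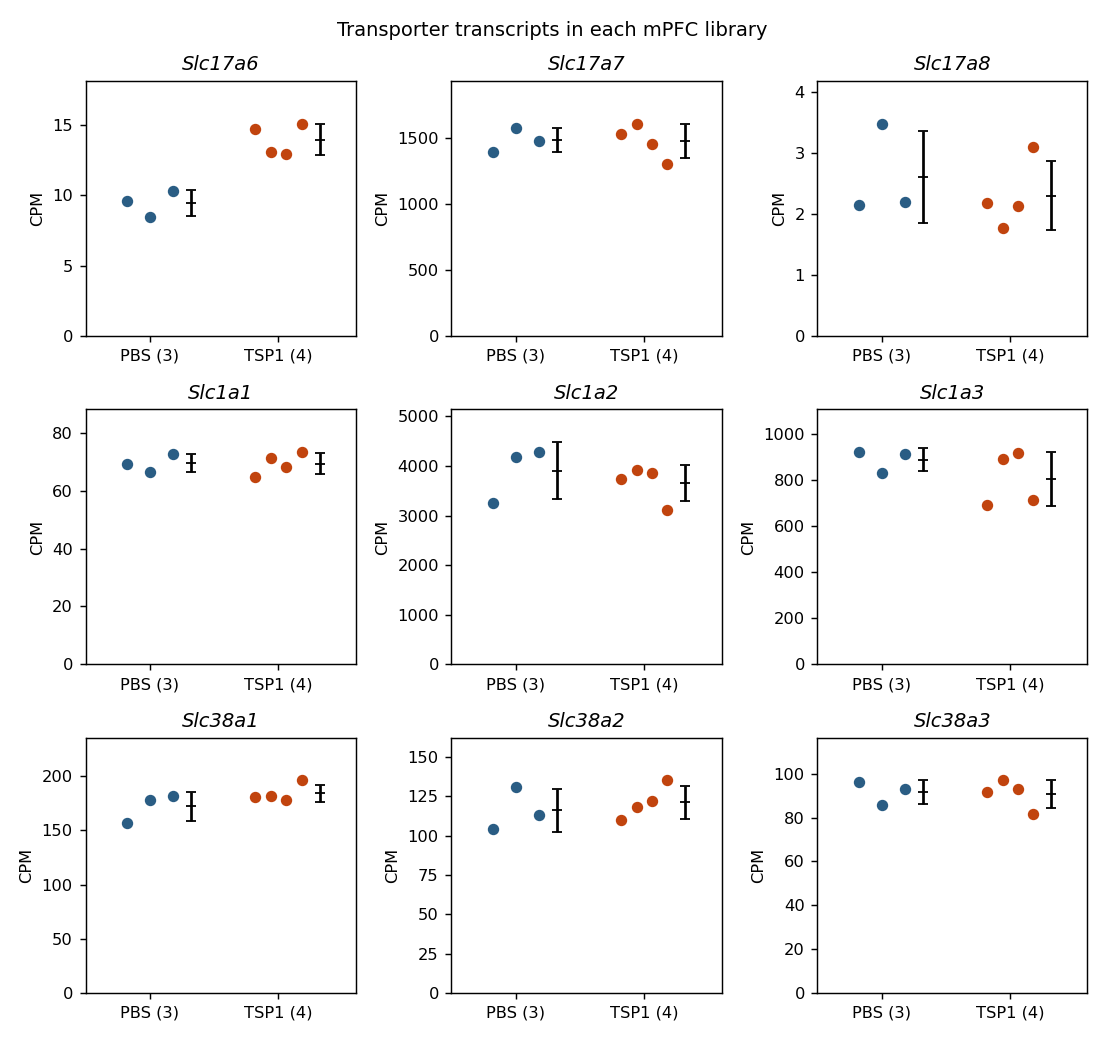
CPM (vertical axes, from 0) of the 9 transporter genes in the 3 PBS libraries (blue) and 4 TSP1 libraries (orange), with 1 point per library and the mean ± SD in black. The Slc17a6 points lie at 12.9 to 15.1 with TSP1 and at 8.46 to 10.3 with PBS, and in the other 8 panels the groups overlap.

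The libraries held 15090336 to 20755167 counts each. At the threshold of 0.05 on the Benjamini-Hochberg false discovery rate (FDR), edgeR's quasi-likelihood test called 0 of 17211 genes (0%), limma-voom called 0, DESeq2 87 and edgeR's exact test 85. At an unadjusted p under 0.05 it gave 1661 genes (9.65%), and at 1737 genes (10.1%) the CPM of the groups did not overlap. Among the 9 transporters 1 met each of these last criteria, a share near that of all genes. In the higher direction the shares of all genes were 4.21% and 4.83%, and 5.26% of genes had TSP1 values below all PBS values. Fitted log2 fold changes were below 0 for 6 of the 9 transporters and for 48.9% of all genes. The median log2 fold change of the 9 was -0.01, beside 0.004 over all genes tested. Markers of cortical excitatory neurons were present in every library, summing to 4041 to 6138 CPM over 14 genes, with 77.9% to 83.8% of the sum in Camk2a, a kinase gene of excitatory neurons. TSP1 replicate 4 stood apart, with 798 CPM over 15 markers of striatal projection neurons, against 360 to 380 in the other 6 libraries, and 8876 CPM over 12 oligodendrocyte markers, against 3234 to 6146. All sums of astrocyte, microglia and endothelial markers lay lower with TSP1 (3399 to 4070, 547 to 692 and 366 to 478 CPM) than with PBS (4176 to 4374, 720 to 843 and 487 to 588 CPM). For every other marker list the sums overlapped between the groups. In bulk tissue, fewer cells of a type and less RNA per cell cannot be told apart.

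Levels of different genes were compared per kilobase of exon (RPKM, CPM divided by the length of the union of a gene's annotated exons). Slc1a2 and Slc17a7 were the most abundant, with 287 ± 33.4 and 274 ± 19.6 RPKM (SD over the 7 libraries), and their ranges overlapped. Slc1a3 followed with 98.3 ± 11.5 RPKM. The glutamine transporters Slc38a3, Slc38a2 and Slc38a1 had 17.3, 13.5 and 10.4 RPKM and Slc1a1 had 8.4 RPKM. Slc17a6, at 2.23 ± 0.481 RPKM, and Slc17a8, at 0.516 ± 0.131 RPKM, were the lowest. Past the first pair, no range over the 7 libraries overlapped that of the next gene. With the length of the longest annotated transcript in place of the exon union, Slc17a7 (479 RPKM) came before Slc1a2 (325 RPKM) and Slc38a1 (24.7 RPKM) before Slc38a2 (19.4 RPKM), and the ranges of Slc38a3, Slc38a1, Slc38a2 and Slc1a1 overlapped from each to the next.

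**Figure D2:**
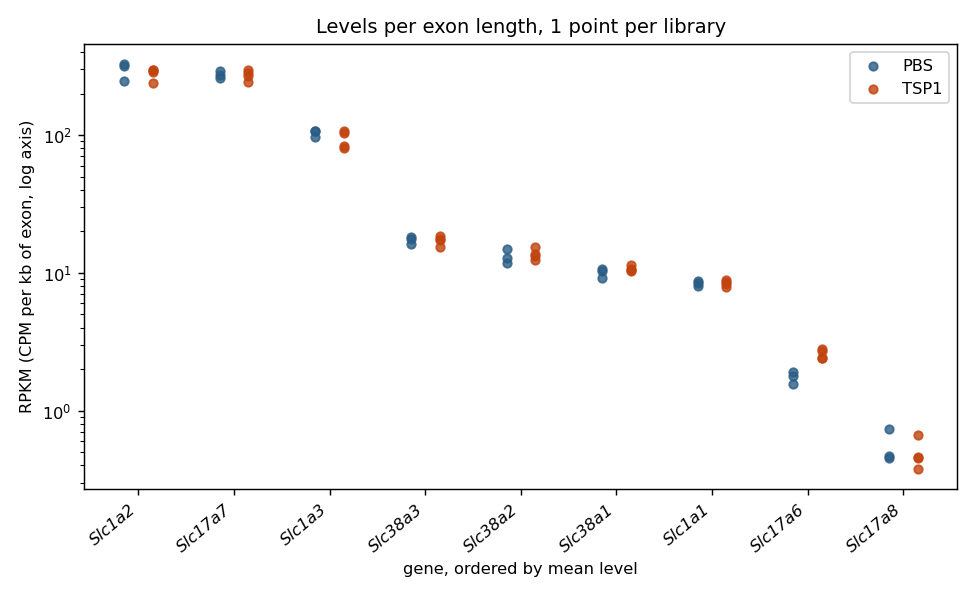
Level in RPKM (log axis) of each transporter gene in each library, ordered by mean level, with PBS in blue and TSP1 in orange. Slc1a2 and Slc17a7 lie near 287 and 274 RPKM, and Slc17a8 at the right has 0.376 to 0.739 RPKM.

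Members of a family share stretches of similar coding sequence, which may bear on how reads are assigned, so the closest stretches were compared. The coding sequence of Slc17a6 was 74% identical to that of Slc17a7 and 73.1% to that of Slc17a8, and Slc17a7 and Slc17a8 were 72.3% identical. The longest run of identical bases was 21 for Slc17a6 and Slc17a7 and 25 for Slc17a6 and Slc17a8. In the other families identity was 65% to 68.9% and the longest run was 26 bases, between Slc38a1 and Slc38a3. The runs of Slc17a6 with each relative are shown because its counts are far below those of Slc17a7, so that a small share of misassigned Slc17a7 reads would weigh on it. All lie in exon 2 of the coding transcripts (GENCODE M21, GRCm38), 5′ to 3′ along the transcript, with the identical run in capitals and 20 bases on either side in lower case. The first pair is Slc17a6 at chr7:51625442-51625502 (plus strand) and Slc17a7 at chr7:45168876-45168936 (plus strand). The second pair is Slc17a6 at chr7:51625398-51625462 and Slc17a8 at chr10:89606648-89606712 (minus strand).
Slc17a6, run shared with Slc17a7: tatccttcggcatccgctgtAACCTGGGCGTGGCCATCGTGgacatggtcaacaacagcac
Slc17a7, same run: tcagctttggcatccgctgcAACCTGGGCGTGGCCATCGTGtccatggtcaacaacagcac
Slc17a6, run shared with Slc17a8: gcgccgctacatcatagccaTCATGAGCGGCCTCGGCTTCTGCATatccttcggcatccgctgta
Slc17a8, same run: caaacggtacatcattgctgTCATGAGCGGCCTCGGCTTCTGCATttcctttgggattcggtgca
Each run ends, by its definition, where a base differs, and beyond that most bases of the flanks also match in both pairs. The sources used here give neither the read length nor how reads that match several genes were handled, and misassignment was not tested.

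Slc17a6 encodes VGLUT2, the vesicular transporter of thalamic and many other subcortical glutamate neurons. It lies on chromosome 7 from 51622006 to 51671119 (GRCm38, plus strand, protein-coding, 5399 bases of exon). It had 14.7, 13.1, 12.9 and 15.1 CPM in TSP1 replicates 1 to 4 and 9.56, 8.46 and 10.3 CPM in PBS replicates 1 to 3. All 4 TSP1 libraries were above all 3 PBS libraries, with a gap from 10.3 to 12.9 CPM between the groups. These values rest on 223 to 278 counts per TSP1 library and 143 to 200 per PBS library. The means were 14 ± 1.14 CPM (SD, n = 4) and 9.45 ± 0.942 CPM (SD, n = 3). The fitted log2 fold change was 0.56, with an SE of 0.11. By unadjusted p (0.00022, quasi-likelihood test in edgeR) it ranked 29 among the 17211 genes. DESeq2 and edgeR's exact test, which called 0.541% and 0.494% of the genes they adjusted, called Slc17a6 higher with TSP1 (adjusted p = 0.0229 and 0.0112). Without the low-count filter, where edgeR's quasi-likelihood test called 0.0746% of all genes, its adjusted p was 0.0672. DESeq2 kept that call in 1 of 7 fits that each left out a library, with adjusted p-values of 0.0468 (without TSP1 replicate 2) to 0.252. The exact test kept it in 5 of 7, with adjusted p-values of 0.0179 to 0.117.

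Slc17a7 encodes VGLUT1, the vesicular transporter of cortical pyramidal neurons. It lies on the same chromosome from 45163949 to 45176142 (plus strand, 5392 bases of exon). Its values were 1527, 1608, 1456 and 1302 CPM with TSP1 and 1393, 1574 and 1472 CPM with PBS, from 23142 to 29880 counts per library. The lowest value was that of TSP1 replicate 4 and the highest that of TSP1 replicate 2, and all PBS values lay within the TSP1 range. The fold was 1.00 (95% interval 0.88 to 1.13, edgeR adjusted p = 0.99). In TSP1 replicate 4 the sum of the 14 cortical excitatory markers was also lowest, at 4041 CPM against 5288 to 6138, with Camk2a at 3147 CPM against 4391 to 5088. Of the 14 markers 6 were at their lowest in that library and 2, Foxp2 and Bcl11b, at their highest. Per 100 CPM of those markers Slc17a7 had 27.3 to 32.2 CPM with TSP1 and 24.5 to 25.6 with PBS, without overlap. Without Camk2a the ratio was 145 to 169 with TSP1 and 147 to 157 with PBS and overlapped, so the separation rests on that gene.

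Slc17a8 encodes VGLUT3, which is found in scattered interneurons and in serotonergic and cholinergic neurons. The gene is on chromosome 10 from 89574020 to 89621253 (minus strand, 4720 bases of exon). It had 2.18, 1.78, 2.14 and 3.11 CPM with TSP1 and 2.15, 3.49 and 2.2 CPM with PBS. The highest value of each group, in TSP1 replicate 4 and PBS replicate 2, stood above the other values of that group. With 33 to 59 counts per library it was the least precisely measured of the 9, with a fold of 0.88 (95% interval 0.60 to 1.29, edgeR adjusted p = 0.876), and without PBS replicate 2 the log2 fold change turned from -0.18 to 0.09. Of 7 serotonergic genes, Tph2, Slc6a4 and Fev each had less than 1 CPM in every library. Slc18a2, Ddc, Htr1a and Maob had group means of 4.57 CPM or more. Their log2 fold changes were 0.03 (SE 0.17), -0.50 (SE 0.21), 0.20 (SE 0.11) and -0.28 (SE 0.08). Of these 4, Ddc and Maob had an unadjusted p under 0.05 in edgeR, both in the lower direction, beside 5.44% of all genes in that direction. The smallest edgeR adjusted p of these was 0.313, for Maob. Its values were lower with TSP1 without overlap, as at 5.26% of all genes.

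Together the vesicular transporters divided as follows. Per exon length Slc17a7 made up 98.6% to 99.2% of the summed level of the family in every library. Slc17a6 made up 0.952%, 0.805%, 0.875% and 1.15% in TSP1 replicates 1 to 4 and 0.679%, 0.532% and 0.695% in PBS replicates 1 to 3. The TSP1 shares were higher without overlap, at 0.944% ± 0.147 (SD, n = 4) against 0.636% ± 0.0899 (SD, n = 3). With transcript length in place of exon length the shares were 0.706% and 0.475%.

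Because Slc17a6 is mainly a subcortical transcript, markers of neighbouring regions are given beside it. Of 15 thalamus markers 14 were tested, and 8 had fitted values above 0 and 6 below, with a median log2 fold change of 0.05. Their summed level was 127 to 153 CPM with TSP1 and 128 to 139 with PBS, so the groups overlapped. Rorb of this list is also a cortical marker. Below 0 lay Tnnt1 (log2 fold change -0.22, SE 0.32), Rgs16 (-0.21, SE 0.22), Prkcd (-0.17, SE 0.09) and Tcf7l2 (-0.10, SE 0.14). Cd44 (-0.07, SE 0.26) and Rorb (-0.06, SE 0.09) also lay below 0. Above 0 lay Vipr2 (0.80, SE 0.87), Slitrk6 (0.63, SE 0.47), Calb2 (0.44, SE 0.51) and Synpo2 (0.13, SE 0.18). Lef1 (0.09, SE 0.21), Ramp3 (0.06, SE 0.11) and Plekhg1 (0.05, SE 0.09) also lay above 0. The groups overlapped for each of these genes. Vipr2 and Calb2 had their lowest values in TSP1 replicate 1 and PBS replicates 2 and 3, as did the olfactory bulb gene Cdhr1. Gbx2 had at most 0.118 CPM in any library. Of the 14 tested, 1 had an unadjusted p under 0.05, beside 9.65% of all genes. This was Ntng1, an adhesion gene of thalamic and some cortical neurons. It lies on chromosome 3 from 109780040 to 110144011 and had 17.5, 16.1, 17.7 and 19.1 CPM with TSP1 against 11.1, 13.2 and 12.6 with PBS. Its groups did not overlap, as at 10.1% of all genes, and its log2 fold change was 0.52, with an SE of 0.10 and an edgeR adjusted p of 0.118. Per 100 CPM of all 15 thalamus markers, Slc17a6 had 8.79 to 11.6 CPM with TSP1 and 6.62 to 7.76 with PBS. Per 100 CPM of the cortical excitatory neuron markers it had 0.222 to 0.375 CPM with TSP1 and 0.138 to 0.175 with PBS. Neither ratio overlapped between the groups, as for Slc17a6 itself, and neither was tested.

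Mitral and tufted cells of the olfactory bulb, which are glutamatergic, express Cdhr1, Eomes and Tbx21. Cdhr1 varied widely, with 3.89, 36.7, 22 and 21.8 CPM with TSP1 and 12.3, 1.71 and 4.1 CPM with PBS. Eomes had 0.066, 4.36, 3.46 and 3.32 CPM with TSP1 and 1.34, 0.0591 and 0.183 CPM with PBS, and was low in the same 3 libraries as Cdhr1. Tbx21 had 0, 1.13, 1.48 and 1.09 CPM with TSP1 and 0.239, 0.0591 and 0.245 CPM with PBS. The groups overlapped for all 3 genes. Their log2 fold changes were 1.77 (SE 0.93, Cdhr1), 2.31 (SE 1.21, Eomes) and 2.32 (SE 0.87, Tbx21), with edgeR adjusted p-values of 0.628, 0.624 and 0.444, and Tbx21 had an unadjusted p of 0.0231. They are the largest of a list of 8 genes of olfactory and claustrum regions, with 6 above 0, 2 below and a median of 0.13. The rest were Synpr (0.16, SE 0.14), Oprk1 (0.09, SE 0.24), Nr4a2 (0.02, SE 0.24), Ntf3 (-0.14, SE 0.38) and Lxn (-0.22, SE 0.10). Lxn had an unadjusted p of 0.0421 in edgeR, in the lower direction. In the same order of libraries Slc17a6 had 14.7, 13.1, 12.9 and 15.1 CPM with TSP1 and 9.56, 8.46 and 10.3 CPM with PBS. The part of olfactory bulb tissue in the Slc17a6 difference was not tested. Without TSP1 replicate 4, the library high in striatal markers, the log2 fold change of Slc17a6 was 0.52 in place of 0.56. The part of striatal tissue in the difference was not tested either.

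**Figure D3:**
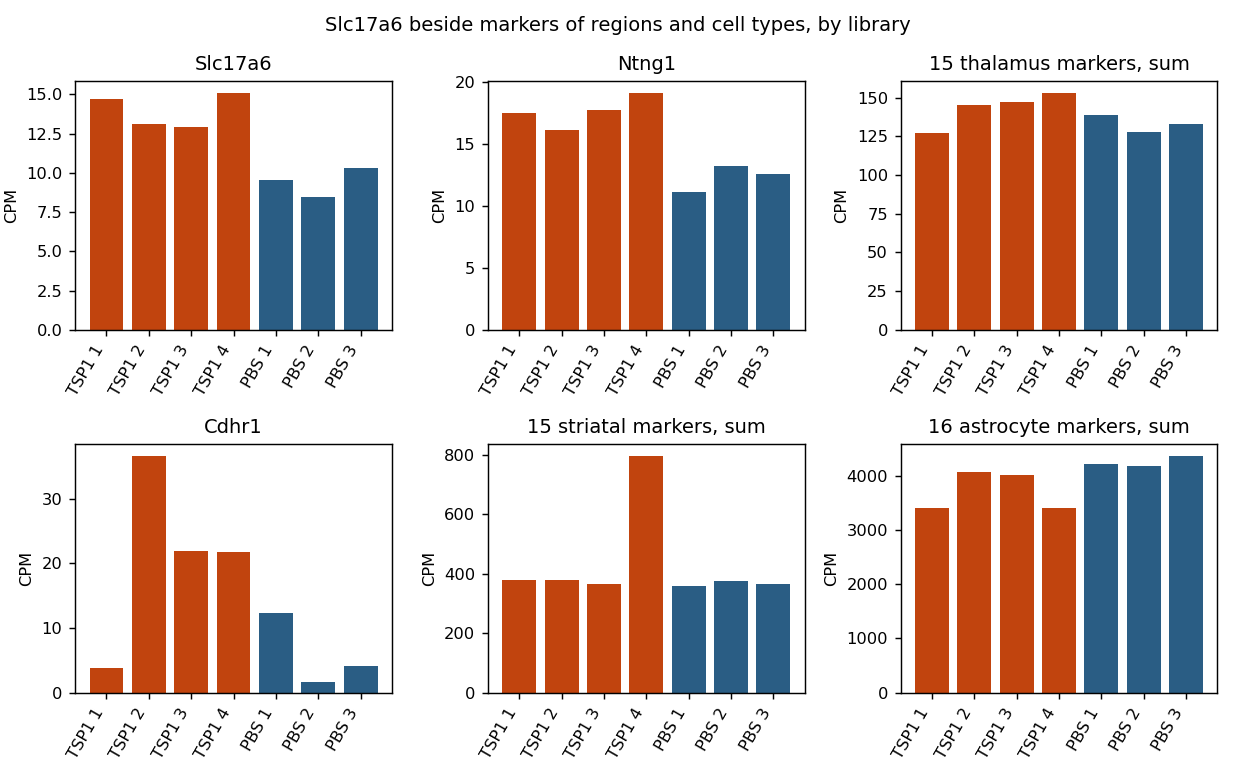
CPM (vertical axes, from 0) by library, with TSP1 in orange and PBS in blue. Shown are Slc17a6, Ntng1 (a gene of thalamic and some cortical neurons), the sum of 15 thalamus markers, the olfactory bulb gene Cdhr1, and the sums of 15 striatal and 16 astrocyte markers. Slc17a6 and Ntng1 separate the groups, Ntng1 as the 1 gene that does so of 14 thalamus markers tested. The thalamus sum overlaps, at 127 to 153 CPM with TSP1 and 128 to 139 with PBS. Cdhr1 is low in TSP1 replicate 1 (3.89) and in PBS replicates 2 and 3 (1.71 and 4.1). The striatal sum of 798 stands out in TSP1 replicate 4.

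Among the uptake carriers, Slc1a2 encodes GLT-1, the astrocyte carrier that clears most synaptic glutamate in the forebrain. The gene is on chromosome 2 from 102658659 to 102790784 (plus strand, 13133 bases of exon). It had 3733, 3918, 3864 and 3121 CPM with TSP1 and 3260, 4188 and 4284 CPM with PBS. The low libraries were TSP1 replicate 4 and PBS replicate 1, 1 in each group, and the other 5 lay between 3733 and 4284. The fold was 0.94 (95% interval 0.80 to 1.10, edgeR adjusted p = 0.822). Without PBS replicate 1 the log2 fold change was -0.21 in place of -0.10.

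Slc1a3 encodes GLAST, another astrocyte glutamate carrier. It lies on chromosome 15 from 8634124 to 8710764 (minus strand, 8537 bases of exon). Its values were 693, 890, 917 and 713 CPM with TSP1 and 921, 831 and 911 CPM with PBS. TSP1 replicates 1 and 4 were below every PBS library, whereas TSP1 replicates 2 and 3 were within the PBS range. The fold was 0.91 (95% interval 0.78 to 1.05, edgeR adjusted p = 0.692). TSP1 replicates 1 and 4 were also the lowest in the summed astrocyte markers, with 3399 and 3400 CPM, against 4070 and 4016 in TSP1 replicates 2 and 3 and 4176 to 4374 with PBS. Of these 16 markers 15 had fitted values below 0 (median log2 fold change -0.22), beside 48.9% of all genes. An unadjusted p under 0.05, always in the lower direction, was reached by 6 of them, beside 5.44% of all genes in that direction. Per 100 CPM of astrocyte markers Slc1a3 had 20.4 to 22.8 CPM with TSP1 and 19.9 to 21.8 with PBS, and Slc1a2 had 91.8 to 110 and 77.2 to 100, so both ratios overlapped.

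Slc1a1 encodes EAAC1, the glutamate and cysteine carrier of neurons. The gene is on chromosome 19 from 28835049 to 28913960 (plus strand, 8257 bases of exon). It had 64.6, 71.2, 68.2 and 73.3 CPM with TSP1 and 69.3, 66.5 and 72.6 CPM with PBS, the narrowest relative range of the 9 genes. The groups shared nearly the same range, with a fold of 1.00 (95% interval 0.91 to 1.10, edgeR adjusted p = 0.996). It shares 2631 bases of exon with the gene 4430402I18Rik on the opposite strand, and the sources used here do not say whether counting used strand, so reads of the pair cannot be told apart. 4430402I18Rik had means of 4.29 ± 0.773 CPM (SD, n = 4, TSP1) and 3.9 ± 0.0755 CPM (SD, n = 3, PBS). Of the other 8 genes, Slc1a2 alone shares exon bases with another gene, 189 with the antisense gene Gm13872, which had less than 1 CPM on average in both groups.

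Per exon length, Slc1a2 made up 68.1% to 76.1% of the summed level of the plasma membrane carriers, Slc1a3 21.8% to 29.6% and Slc1a1 1.9% to 2.69%. Mean shares of Slc1a2 with TSP1 were 73.1% ± 2.04 (SD, n = 4), and those with PBS were 72.4% ± 3.75 (SD, n = 3), within the spread between libraries. The ratio of Slc1a2 to Slc17a7 transcripts per exon length was 0.984 to 1.09 with TSP1 and 0.961 to 1.2 with PBS. Its size depends on the length used, as Slc1a2 had 325 and Slc17a7 479 RPKM per longest transcript. Transport itself was not measured.

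The glutamine carriers showed small fitted differences. Slc38a3 encodes SNAT3, the system N carrier through which astrocytes release glutamine. It lies on chromosome 9 from 107650634 to 107669530 (minus strand, 5277 bases of exon) and had 91.5, 96.9, 93.1 and 81.7 CPM with TSP1 and 96.2, 85.7 and 93.2 CPM with PBS. The lowest library was again TSP1 replicate 4, the groups overlapped, and the fold was 0.99 (95% interval 0.89 to 1.10, edgeR adjusted p = 0.971). Per 100 CPM of the astrocyte markers, which were lower with TSP1, Slc38a3 had 2.32 to 2.69 CPM with TSP1 and 2.05 to 2.28 with PBS, a ratio that did not overlap and was not tested.

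Slc38a1 encodes SNAT1, a system A carrier of neurons, with high expression in GABA neurons. The gene is on chromosome 15 from 96571418 to 96642913 (minus strand, 17236 bases of exon). It had 181, 182, 178 and 196 CPM with TSP1 and 157, 178 and 182 CPM with PBS. PBS replicate 1 was low and TSP1 replicate 4 high, and the other 5 libraries lay between 178 and 182. The fold was 1.07 (95% interval 0.97 to 1.18, edgeR adjusted p = 0.697). Without PBS replicate 1 the log2 fold change was 0.03 in place of 0.10, and after a correction for exon length and GC content it was 0.02.

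Slc38a2 encodes SNAT2, the amino acid carrier that cells induce when amino acids are scarce. It lies next to Slc38a1, on chromosome 15 from 96687392 to 96699730 (minus strand, 8838 bases of exon). It had 110, 118, 122 and 135 CPM with TSP1 and 104, 131 and 113 CPM with PBS. The extremes were PBS replicate 1 and TSP1 replicate 4, as for Slc38a1, and the groups overlapped, with a fold of 1.04 (95% interval 0.92 to 1.19, edgeR adjusted p = 0.871). The ratio of Slc38a1 to Slc38a2 per exon length was 0.745 to 0.845 with TSP1 and 0.697 to 0.823 with PBS.

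Other genes that handle glutamate and glutamine were read from lists. Of 16 further carriers 15 were tested, and their median log2 fold change was 0.00, with 8 above 0 and 7 below. Slc1a5, the neutral amino acid exchanger ASCT2, was the 1 carrier of these 15 with an unadjusted p under 0.05, beside 9.65% of all genes. It lies on chromosome 7 from 16781340 to 16798274 and had 3.83, 4.09, 3.57 and 3.92 CPM with TSP1 against 2.15, 2.78 and 2.87 with PBS. Its groups did not overlap, as at 10.1% of all genes, and its level was low. Its log2 fold change was 0.57, with an SE of 0.19 and an edgeR adjusted p of 0.352.

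Of 12 enzymes of glutamate and glutamine metabolism, 8 had fitted values below 0, beside 48.9% of all genes, and the median log2 fold change was -0.05. An unadjusted p under 0.05, all in the lower direction, was reached by 3 of them, beside 5.44% of all genes in that direction. Glul, the glutamine synthetase of astrocytes, lies on chromosome 1 from 153899944 to 153909723 and had 1558, 1953, 1925 and 1633 CPM with TSP1 and 1933, 2028 and 2176 CPM with PBS. Its log2 fold change was -0.21, with an SE of 0.09 and an edgeR adjusted p of 0.479. As for Slc1a3, TSP1 replicates 1 and 4 were the low libraries. The alanine aminotransferases Gpt2 and Gpt, which exchange amino groups between alanine and glutamate, were the others. Gpt2 had a log2 fold change of -0.21 (SE 0.08) and an edgeR adjusted p of 0.401, and Gpt had -0.23 (SE 0.09) and 0.471. Gls2, which makes glutamate from glutamine, had a log2 fold change of -0.08 (SE 0.11).

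**Figure D4:**
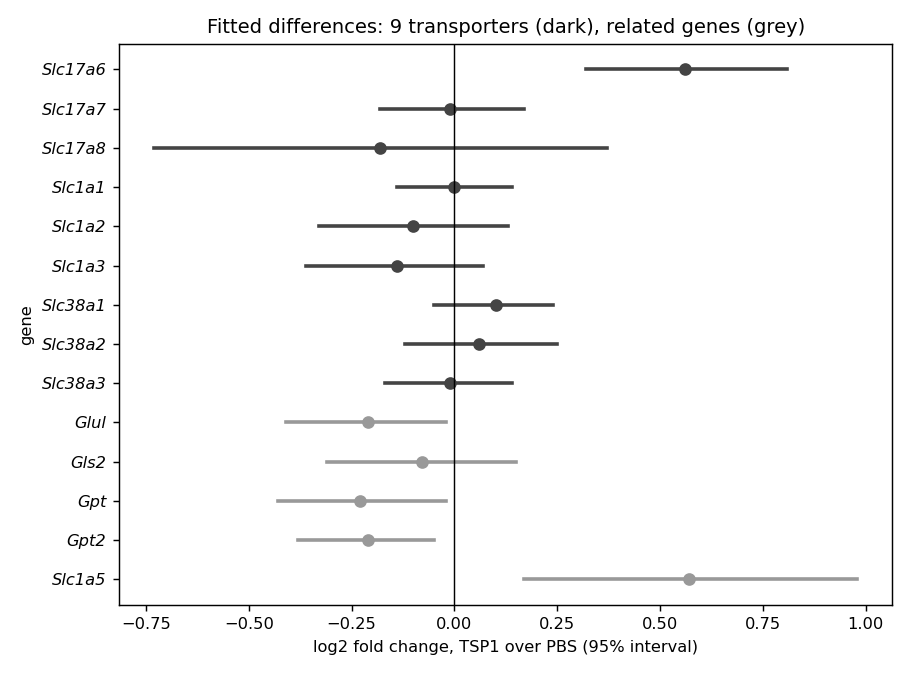
Log2 fold change of TSP1 over PBS (horizontal axis) with its 95% interval from edgeR's quasi-likelihood fit for the 9 transporters (dark) and 5 related genes (grey). The Slc17a6 interval, 0.32 to 0.81, and that of Slc1a5 lie above 0, those of Glul, Gpt and Gpt2 below 0, and the other 9 include 0, before any adjustment for the number of genes.

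Proton pump, sodium pump and GABA genes were read in the same way. All 16 subunit genes of the vesicular proton pump, which builds the gradient for vesicular loading, were tested, and 0 had an unadjusted p under 0.05, beside 9.65% of all genes. Their summed level was 3898 to 4092 CPM with TSP1 and 3975 to 4022 with PBS. The member of smallest p was Atp6v0b (log2 fold change -0.11, SE 0.06, edgeR adjusted p = 0.621). The 6 sodium pump genes, whose gradient drives uptake, and the 7 genes of GABA synthesis and transport also had 0 genes at that level. In lists this short a count of 0 is near the share of all genes.

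The genes whose log2 CPM followed a transporter most closely over the 7 libraries were sought among 15474 genes with at least 1 CPM on average, by the root mean square of the difference between centred values. For Slc17a6 these were Mutyh (0.066), Zfp976 (0.088) and Pbld2 (0.10), against 0.297 for the variation of Slc17a6 itself. All 3 had at most 3.18 CPM on average in a group and none passed the adjustment. For Slc17a7 they were Zfp580 (0.026), Cyp46a1 (0.027) and Phyhip (0.030), against 0.097. For Slc1a2 they were Rims1 (0.041), Cdk2ap1 (0.043) and Trim8 (0.050), against 0.160, and for Slc1a3 they were BC029722 (0.032), Pon2 (0.033) and Ppp1r1a (0.040), against 0.163. The best match among so many genes is close by selection, and these values are a description of these 7 libraries.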

How the data were processed

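RNA of 7 samples (4 TSP1, 3 PBS) was extracted with a column kit and made into SMARTer mRNA libraries, per the labels' protocols. The deposited table holds raw read counts per gene, as its values show (whole numbers with different totals). The submitters' processing notes name the builds GRCm38 and mm10. The sources used here do not give aligner, counter, annotation or strand setting. Each column was tied to a sample by the number that opens its description, which left 0 columns over. The library numbers do not interleave between groups (1 to 4 TSP1, 8, 11 and 12 PBS), so their order and the treatment cannot be told apart. Each library was taken as 1 replicate.

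Identifiers were matched to GENCODE M21 (GRCm38), and 25375 of 25467 matched. The main test was edgeR 4.0.16 (R 4.3.3) with filterByExpr, TMM factors and a robust quasi-likelihood fit of group over 7 libraries, two-sided, adjusted by Benjamini-Hochberg over 17211 genes. Intervals are 95%. SE was obtained by dividing the absolute log2 fold change by the root of the F statistic. Log2 CPM used a prior count of 2. Alternatives were RLE and total count scaling, DESeq2 1.42.0, edgeR's exact test, limma 3.58.1 voom, no low-count filter, a floor of 5 CPM in 3 libraries, replicate number as a blocking term, a length and GC correction (splines with 4 degrees of freedom) and each library left out. DESeq2 and the exact test with libraries left out were added for Slc17a6 after the data were seen, as was the ratio of Slc17a7 to the cortical markers without Camk2a. The scripts were tested on simulated counts.

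Members and lists were chosen with earlier results of these data known. Named were all 9 transporters, list genes with an unadjusted p under 0.05 (pathway lists) or else the smallest p, Glul, Gls2, and the 3 genes of closest pattern. Some genes that this rule names are not reported here. Further marker genes were named after their values were seen. Chi-square per degree of freedom between libraries of one group was 3.98 to 13.38, above sampling noise. Coding sequences were aligned with Biopython 1.88.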

Additional observations from a re-analysis of the deposited data

Results flagged for a closer look

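Within the 4 TSP1 libraries, 42 values were examined for a library far from the others by Dixon's criterion, and 5 met it. Chance meets this criterion in about 1 of 20 groups. Many of the 42 values share genes and all share these libraries, so they are not independent and their count cannot be set directly against that rate. The summed striatal markers were 798 CPM in TSP1 replicate 4 against 367 to 380 in the other 3. In the same library the share of Slc1a1 among the plasma membrane carriers was 2.69% against 2.01% to 2.1%, and Slc17a7 per 100 CPM of cortical excitatory markers was 32.2 against 27.3 to 28.1. Camk2a, most of that sum, was at 3147 CPM there against 4391 to 4947, and without Camk2a the ratio was 145 against 149 to 169. The ratio of Slc1a2 to Slc1a3 per exon length was 3.5 in TSP1 replicate 1 against 2.74 to 2.86. The ratio of Slc1a2 to Slc17a7 was 1.09 in TSP1 replicate 3 against 0.984 to 1.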

How the results depend on the processing

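Slc17a6 stayed higher with TSP1 under all 16 alternatives, with log2 fold changes of 0.50 to 0.63 and adjusted p-values of 0.0112 (edgeR's exact test) to 0.413 (replicate block). It was called by DESeq2 and the exact test and by no other alternative. The other 8 genes were called under none of theirs. Their log2 fold changes changed sign in 17 of 127 values, from -0.18 to 0.09 at most (Slc17a8 without PBS replicate 2). With total count scaling Slc17a7, Slc1a1 and Slc38a3 had 0.02, 0.03 and 0.01, with the replicate block Slc17a7 and Slc38a3 had 0.05 and 0.03, with the length and GC correction Slc17a7 had 0.01, and with at least 5 CPM in 3 libraries Slc1a1 had 0.0030. With single libraries left out the ranges were -0.05 to 0.05 (Slc17a7), -0.36 to 0.09 (Slc17a8), -0.03 to 0.03 (Slc1a1), -0.01 to 0.17 (Slc38a2) and -0.05 to 0.04 (Slc38a3). The count of genes called over the whole table was 0 with all 7 libraries, 3 with total count scaling, 87 with DESeq2, 85 with the exact test, 19 without the low-count filter and 0 to 9 with a library left out (9 without PBS replicate 3). Same-numbered libraries did not deviate together (correlations of -0.26, -0.03 and 0.01), so the replicate numbers were not taken as pairs, and the replicate block gave 0 calls. Depth limits Slc17a8 most, at 33 to 59 counts per library.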
